A study of Sus scrofa with 22 samples.

Results

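The luminal epithelium (LE) is the cell layer that lines the uterine lumen and faces the conceptus. It was compared between pregnant and cyclic (control) gilts on Day 12 in the 8 LE libraries among the 22 libraries of the series, with compartment and pregnancy status taken from the sample labels. The 4 pregnant gilts, numbered 01, 03, 05 and 14, were compared with 4 control gilts, numbered 02, 04, 06 and 13, and each contributed 1 LE library. Counts were given for 11415 genes in LE, out of 12401 genes listed for at least 1 of LE, glandular epithelium (GE) and stroma (S), and all 11415 entered the test. All 8 animals were prepuberal crossbred gilts of German Landrace and Piétrain, and in both groups ovulation was synchronised with pregnant mare serum gonadotropin followed by human chorionic gonadotropin. Pregnant gilts were inseminated with semen of a boar, whereas control gilts received the supernatant left after semen of that boar had been spun down. LE was cut from frozen sections by laser capture microdissection (LCM), so that each library stands for the RNA of a small number of cells of 1 gilt.

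In the pig, elongating conceptuses release estrogen and a conceptus form of interleukin 1 beta before they attach, and the LE is the first maternal cell layer these signals meet. The LE in turn secretes growth factors, carries nutrients and ions into the lumen, and becomes ready for attachment through changes in adhesion proteins and in the mucin coat of its apical surface. Placentation in the pig leaves the LE intact, and the conceptus attaches to it without invasion.

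Expression is given as CPM, the read count of a gene relative to the library total, after TMM scaling, and values of single libraries follow the order 02, 04, 06 and 13 for control gilts and 01, 03, 05 and 14 for pregnant gilts. Totals on the listed genes ranged from 893912 counts in pregnant gilt 01 to 4020796 counts in control gilt 13, so that 3 counts, taken as the floor of detection in a library, stood for 3.50 CPM in the former and 0.690 CPM in the latter. Log2 CPM correlated between 0.938 and 0.964 among control libraries and between 0.821 and 0.928 among pregnant libraries, and the median SD over all genes on the log2 scale was 0.235 in control and 0.432 in pregnant gilts. Pregnant values thus scattered more than control values. The library of pregnant gilt 01 stood apart by its smallest total, by 154 genes at 0 against 13 to 45 in the other 7 libraries, and by smooth muscle markers. The 6 listed smooth muscle markers summed to 5660 CPM in this library, against 275 to 483 CPM in the other pregnant and 365 to 1012 CPM in the control libraries. ACTA2, the smooth muscle actin, had 64.6, 49.7, 35.8 and 72.95 CPM in control and 3391, 138, 167 and 66.5 CPM in pregnant gilts, so its level in gilt 01 was far above that of the other 7 libraries. Counts of called genes are therefore also given without this library. ACTA2 passed the threshold without pregnant gilt 14 (quasi-likelihood FDR 0.00910).

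The LE label was checked against defining genes. All 17 epithelial markers were listed and summed to between 3899 and 4797 CPM in control and between 3855 and 5493 CPM in pregnant LE. Of 21 fibroblast markers 19 were listed, and they summed to between 14750 and 21121 CPM in control and between 11842 and 28066 CPM in pregnant LE. In the S libraries of control gilts, the epithelial markers reached 3589 to 4732 CPM and the 18 fibroblast markers listed there 6316 to 10575 CPM, both sums after TMM scaling within their own table. Among control gilts, fibroblast sums were thus higher in each LE than in each S library, and epithelial sums overlapped. These marker sums therefore did not set LE apart from S as epithelium, and LE below means the libraries with that label. In pregnant gilts, the S libraries held 10249 to 76076 CPM of fibroblast and 1711 to 5287 CPM of epithelial markers, and the S library of gilt 01 had the highest fibroblast and the lowest epithelial sum. COL1A1, a fibroblast collagen, had 3585, 4012, 3323 and 3910.1 CPM in control and 8073, 2165, 3475 and 3008 CPM in pregnant gilts, and these ranges overlapped. The 14 listed blood endothelium markers summed to 1164 to 1604 CPM in control and 1207 to 2546 CPM in pregnant LE, highest in gilt 01. Their log2 FC ran from −0.15 (VWF) to 0.91 (PECAM1), without a call, and a part of vessel RNA was not tested. In bulk libraries of this kind, a change in the number of cells of a type cannot be told apart from a change of RNA per cell. Of 28 leukocyte markers 7 were listed, summing to 165 to 285 CPM in control and 281 to 337 CPM in pregnant LE. This rise was that of LAPTM5, which had 55.4, 73.5, 68.6 and 87.4 CPM in control and 233, 204, 263 and 217 CPM in pregnant gilts (log2 FC 1.68 with SE 0.18, quasi-likelihood FDR 0.000233). The other 6, PTPRC among them, were not called, had log2 FC of −0.90 to −0.11 and summed to 91.1 to 197 CPM in control and 73.5 to 93.4 CPM in pregnant LE. CD3D, CD3E, CD4, CD8A, CD79A, CD14 and AIF1 were among the 21 without counts here. Of 4 gland markers ACP5 alone was listed, and it went from between 156 and 348 CPM in control to between 5.44 and 70.6 CPM in pregnant LE. It was not called (log2 FC −2.82 with SE 0.65, quasi-likelihood FDR 0.0125) and passed the threshold in 1 of 8 fits with 1 gilt left out. A share of gland RNA in the lower genes was not tested. Of 26 conceptus markers only GATA2, PTGS2 and PAG1 were listed, and the steroid enzyme genes of the conceptus and IL1B2 were not. The annotation names the listed PAG1 as a membrane adaptor phosphoprotein, which shares its symbol with the pregnancy-associated glycoprotein and does not mark the conceptus.

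**Figure D1:**
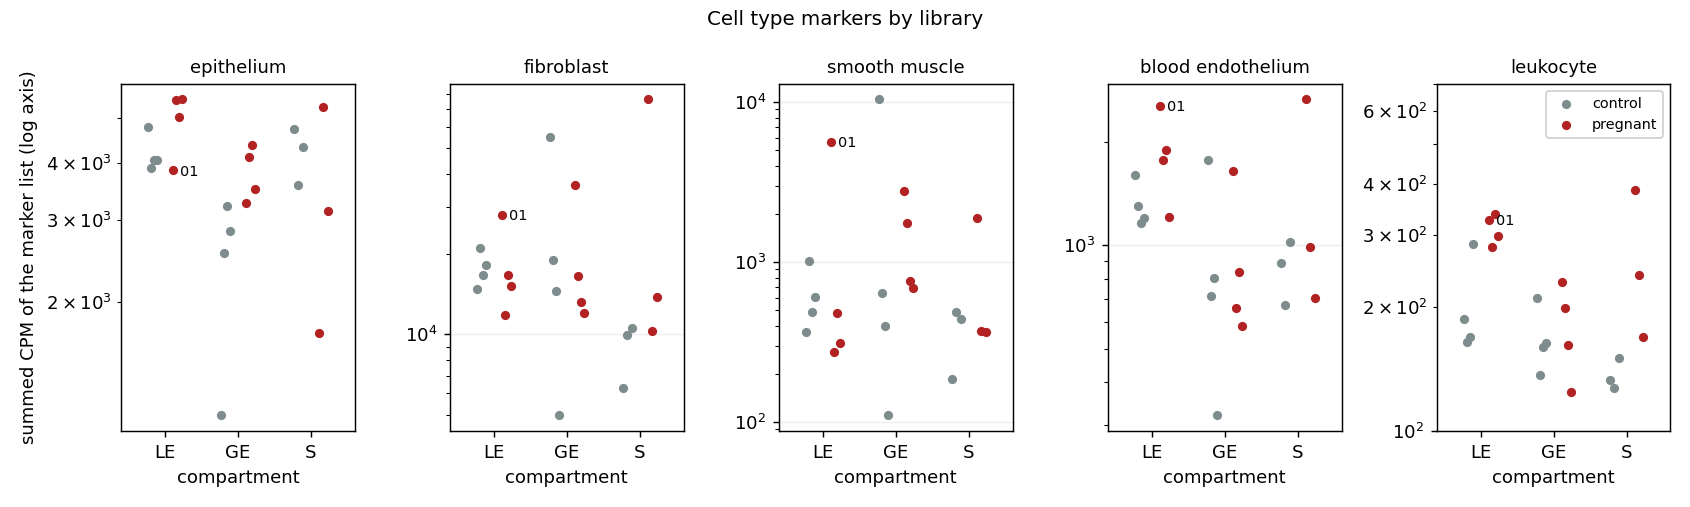
Summed CPM of 5 marker lists (log axis) in every LE, GE and S library of control (grey) and pregnant (red) gilts, each point 1 library, with pregnant LE of gilt 01 marked 01. Fibroblast sums of control LE (14750 to 21121 CPM) lie above those of control S (6316 to 10575 CPM), and gilt 01 stands above the other LE libraries in smooth muscle markers (5660 CPM).

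Pregnancy was accompanied by a broad change in the libraries labelled LE. A gene was called when its FDR (Benjamini-Hochberg) in the quasi-likelihood F test of edgeR was below 0.01. This held for 1146 of 11415 genes (10.0%), of which 722 were higher (6.33% of all genes) and 424 lower (3.71%) in pregnant gilts. In 1134 of the called genes the 4 pregnant libraries did not overlap with the 4 control libraries, a separation that 26.7% of all genes showed. The called higher genes had a median log2 FC (pregnant over control) of 1.75 and the called lower genes of −1.61. A rise of at least 2 on the log2 scale was found for 286 genes and a fall of that size for 156. Genes called higher took up 5.49% to 5.97% of the counts of a control library and 15.2% to 20.9% of a pregnant library, whereas genes called lower went from 7.65% to 8.34% down to 1.99% to 3.10%. Scaling by library size alone shifted the median log2 FC of all genes from 0.01 to −0.14 and changed the split to 582 higher and 570 lower genes, 50.5% higher in place of 63.0%. Without pregnant gilt 01, 966 of the 1146 calls were kept, 633 of them higher and 333 lower. The number of calls fell by more than a factor of 1.5 when control gilt 02 (684 genes), 04 (588), 06 (627) or 13 (678) or pregnant gilt 05 (664) was left out, and rose to 1643 without pregnant gilt 14. In all 8 fits with 1 gilt left out, 531 genes were called (363 higher and 168 lower).

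**Figure D2:**
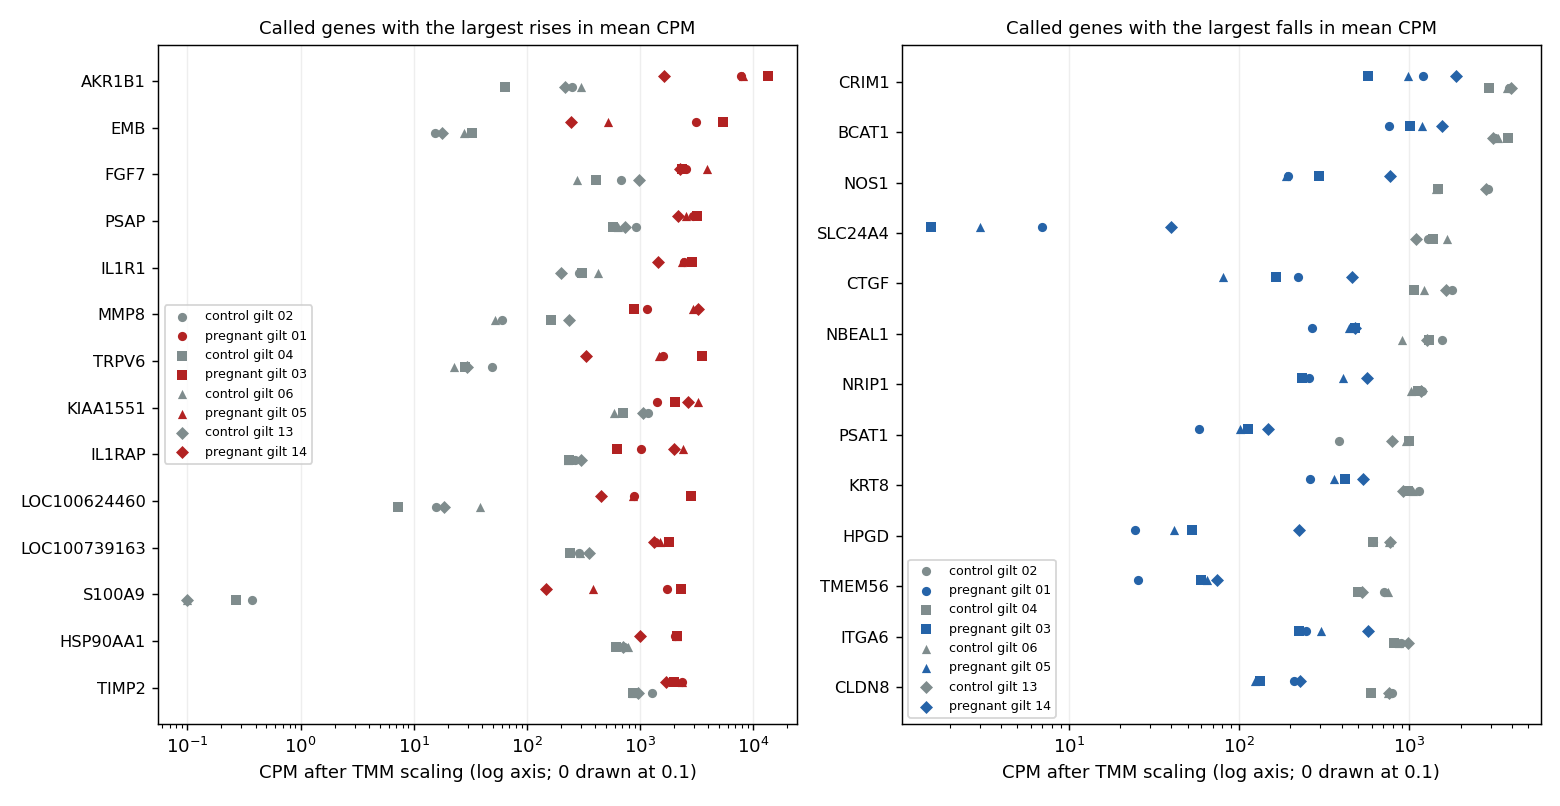
CPM after TMM scaling (log axis) of 14 of the 15 called genes with the largest rise and 13 of the 15 with the largest fall in mean CPM, each symbol 1 library, control in grey and pregnant in colour. AKR1B1 lies at 1638 CPM or above in the pregnant and at 299 CPM or below in the control gilts, and SLC24A4 lies at 1094 CPM or above in the control and at 40.0 CPM or below in the pregnant gilts.

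Genes were grouped by function in 46 lists that together held 2367 of the listed genes, of which 256 were called higher and 78 lower. The highest list medians were those of antimicrobial and acute phase genes, gap junctions, squamous barrier genes and the cell cycle, and the lowest those of keratins, cholesterol and the interferon response. Over all genes the median log2 FC was 0.01, 5769 genes lay above 0, and 6.33% were called higher and 3.71% lower. Medians of 10 lists changed sign under scaling by library size alone, and where such a median is given below its other value stands beside it, as does the median without pregnant gilt 01 where that moved it by more than a factor of 1.5. Where calls are given with 1 gilt left out, fewer and more name the gilts without which their number moved by more than that factor.

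**Figure D3:**
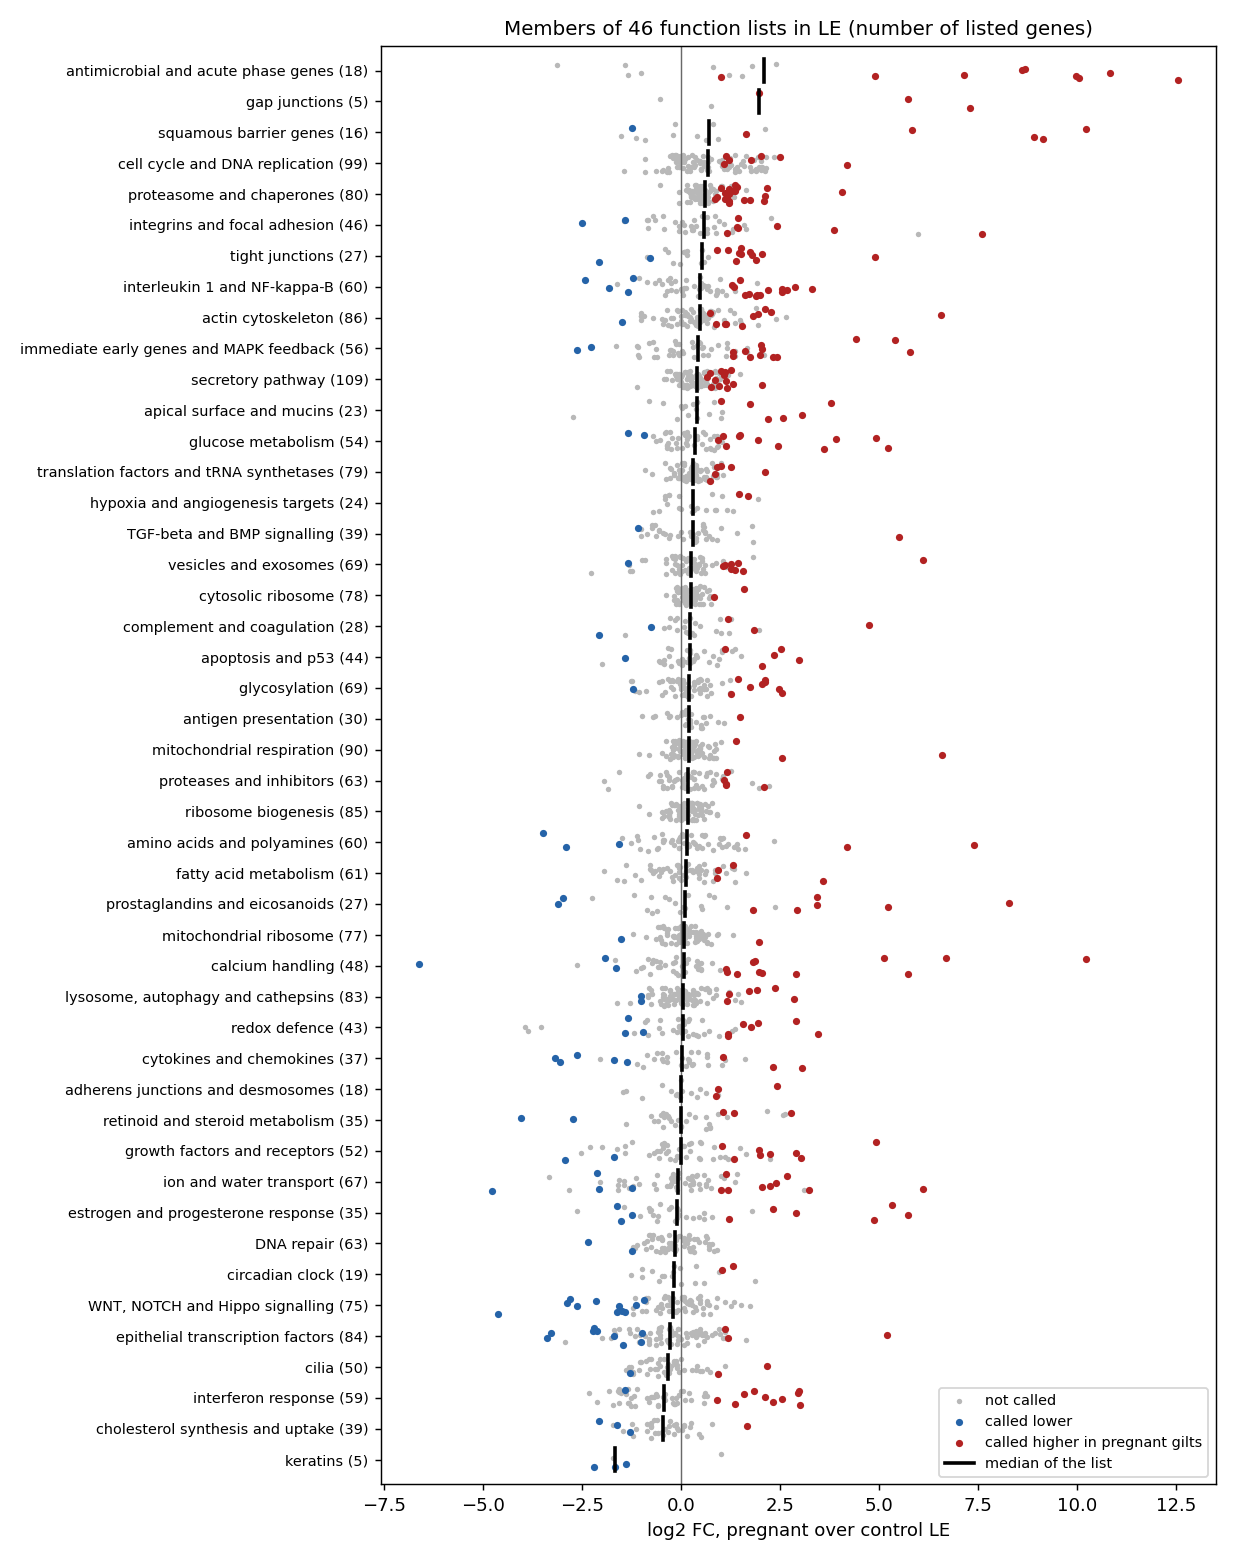
Log2 FC (pregnant over control LE) of the members of 46 function lists, each dot 1 gene, red called higher, blue called lower, grey not called, black bar the median of the list, with the number of listed genes in parentheses. Medians run from −1.65 for keratins to 2.11 for antimicrobial and acute phase genes.

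Tight junctions close the space between epithelial cells, and their claudins were more often called higher than lower. Among 27 listed members (of 42 found in the annotation), 11 were called higher and 2 lower, with a median log2 FC of 0.54. The claudin and occludin family held 6 of the higher and 1 of the lower calls among 9 genes, and the scaffold and polarity proteins 5 and 1 among 18. CLDN1 (gene ID 100625166, chromosome 13, 127714857 to 127730628) had 2.21, 1.07, 4.18 and 1.61 CPM in control and 93.4, 49.9, 70.1 and 55.6 CPM in pregnant gilts. It was near the floor in the controls and clearly present in every pregnant gilt (log2 FC 4.91 with SE 0.39, quasi-likelihood FDR 5.18e-05). CLDN4 was at 351, 259, 282 and 265 CPM in control and 1139, 1118, 839 and 793 CPM in pregnant gilts, roughly the same rise in each pregnant gilt (log2 FC 1.75 with SE 0.19, quasi-likelihood FDR 0.000282). CLDN3 (log2 FC 1.91), OCLN (1.52), CLDN12 (1.39) and MARVELD2 (2.06) rose with them. CLDN8 went the other way, with 789, 596, 753 and 762 CPM in control and 210.1, 133, 123 and 228 CPM in pregnant gilts (log2 FC −2.06 with SE 0.24, quasi-likelihood FDR 0.000339). TJP1, the scaffold ZO-1, was at 855, 703, 893 and 881 CPM in control and 413, 479, 506 and 563 CPM in pregnant gilts and also fell (log2 FC −0.76 with SE 0.17, quasi-likelihood FDR 0.00927). TJP1 lost its call without any 1 gilt except pregnant gilt 14 (quasi-likelihood FDR up to 0.0322). For tight junctions, lower calls numbered 1 to 2 with 1 gilt left out, fewer without each gilt except pregnant gilt 14. CLDN1 shares 5.48% of its 50-base windows with LOC396566.

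Gap junction genes form channels between neighbouring cells, and 3 of the 5 listed were called higher. GJA1 (connexin 43) had 95.6, 121, 112 and 95.96 CPM in control and 447, 355, 409 and 467 CPM in pregnant gilts, with the pregnant libraries close to each other (log2 FC 1.98 with SE 0.17, quasi-likelihood FDR 6.66e-05). GJB5 had 0, 0, 0 and 0.230 CPM in control and 18.7, 37.4, 9.98 and 8.75 CPM in pregnant gilts (a 219-fold ratio of pooled CPM, 95% counting interval 38.7 to 8717, quasi-likelihood FDR 0.000389, the pooled CPM being the summed counts of a group over its summed scaled totals, and the interval covering counting error only). In contrast, 3 of 5 keratins were called lower and none higher (lower calls 1 to 4 with 1 gilt left out, fewer without control gilt 02 or 13). KRT8 was at 1133, 986, 1052 and 921 CPM in control and 263, 421, 359 and 532 CPM in pregnant gilts (log2 FC −1.37 with SE 0.22, quasi-likelihood FDR 0.00190), and its partner KRT18 at a log2 FC of −1.71 was not called (FDR 0.0198, quasi-likelihood). KRT7 (log2 FC −1.65) and KRT19 (−2.19) fell. E-cadherin, CDH1, which holds epithelial cells together at adherens junctions, had 1023, 840.3, 891 and 949.97 CPM in control and 1169.8, 1977, 1962 and 1969 CPM in pregnant gilts and rose least in gilt 01 (log2 FC 0.93 with SE 0.21, quasi-likelihood FDR 0.00978). Of 8 desmosome genes 1 was called, PKP4 (log2 FC 0.89). KRT7 lost its call without control gilt 02 or 13 or pregnant gilt 05 (quasi-likelihood FDR up to 0.0149), KRT19 without any 1 gilt except pregnant gilt 05 and 14 (up to 0.0223), CDH1 without any 1 gilt except pregnant gilt 01 (up to 0.0335) and PKP4 without any 1 gilt except pregnant gilt 01, 03 and 14 (up to 0.0189). KRT18 passed the threshold without pregnant gilt 01 or 14 (quasi-likelihood FDR 0.00690). GJB5 shares 5.46% of its 50-base windows with another gene.

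Some genes best known from stratified epithelia rose in the pregnant LE, from 0 or a few counts in the controls. Of 16 listed squamous barrier genes (of 46 found in the annotation) 5 were called higher and 1 lower (median log2 FC 0.72). The 3 clade B serpins among the higher calls, which inhibit proteases within cells, were at or near 0 in the controls. SERPINB5, also in the list, was not called (log2 FC 0.40). SERPINB7 (gene ID 100152588, chromosome 1, 157953872 to 157999242) had 0, 0, 0 and 1.15 CPM in control and 424, 142, 179.9 and 178 CPM in pregnant gilts (log2 FC 9.15 with SE 0.71, quasi-likelihood FDR 5.18e-05). SERPINB2, plasminogen activator inhibitor 2 (gene ID 100519286, chromosome 1, 157871919 to 157886525), had 0.369, 0, 0.348 and 0.230 CPM in control and 152, 21.8, 192 and 146 CPM in pregnant gilts, and pregnant gilt 03 was lowest (a 625-fold ratio of pooled CPM, 95% counting interval 213 to 3036, quasi-likelihood FDR 0.000128). SERPINB11 reached 11.7, 20.8, 4.23 and 8.12 CPM from at most 0.696 CPM (a 66.2-fold ratio of pooled CPM, 95% counting interval 17.8 to 555, quasi-likelihood FDR 0.00156). TRPV3, a cation channel of keratinocytes, had no count in any control and 119, 48.3, 37.2 and 12.8 CPM in pregnant gilts (at least 59.7-fold higher, quasi-likelihood FDR 0.00176, against 3 counts taken for each control library). OVOL1, a transcription factor of epidermal differentiation, rose (log2 FC 1.65), and GRHL2, a regulator of epithelial junction genes, fell from 84.9, 93.8, 92.6 and 75.5 CPM to 38.5, 35.8, 31.7 and 43.1 CPM (log2 FC −1.22 with SE 0.17, quasi-likelihood FDR 0.000843). The envelope proteins EVPL (log2 FC −0.91) and PPL (−1.12) were not called. OVOL1 lost its call without control gilt 04 or 06 or pregnant gilt 05 (quasi-likelihood FDR up to 0.0162). For squamous barrier genes, lower calls numbered 1 to 2 with 1 gilt left out, more without pregnant gilt 14. OVOL1 shares 8.79% of its 50-base windows with LOC100511545 and GRHL2 7.10% with NCALD.

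Antimicrobial and acute phase genes held 9 called higher and none lower among 18 listed (higher calls 8 to 10 with 1 gilt left out). S100A9 (gene ID 100127489, chromosome 4, 96236114 to 96238989), a subunit of calprotectin, had 0.369, 0.267, 0 and 0 CPM in control and 1718, 2311, 382 and 147 CPM in pregnant gilts. Levels in gilts 01 and 03 were several times those in 05 and 14, yet all were far above the controls (a 5634-fold ratio of pooled CPM, 95% counting interval 1559 to 46530.1, quasi-likelihood FDR 0.000176). Its partner S100A8 had 441, 609.7, 254 and 99.3 CPM in pregnant gilts, in the same order of gilts, and at most 1 count in any control (a 1993-fold ratio of pooled CPM, 95% counting interval 551 to 16465, quasi-likelihood FDR 5.18e-05). S100A12, another member of the calgranulin group, had 0.369, 0.534, 0.348 and 0.230 CPM in control and 684, 508, 382 and 184 CPM in pregnant gilts (log2 FC 10.06 with SE 0.56, quasi-likelihood FDR 1.30e-05). SAA3, an acute phase protein, went from at most 1 count per control library to 81.7, 241, 97.95 and 47.2 CPM (a 1486-fold ratio of pooled CPM, 95% counting interval 266 to 58756, quasi-likelihood FDR 6.76e-05). ACOD1, the enzyme that makes itaconate, had 0, 0, 0 and 1.38 CPM in control and 123, 339, 222 and 99.96 CPM in pregnant gilts (log2 FC 8.70 with SE 0.75, quasi-likelihood FDR 8.17e-05). PGLYRP2, which cleaves bacterial peptidoglycan, had 2.95, 1.34, 2.78 and 1.38 CPM in control and 68.9, 59.2, 74.4 and 47.2 CPM in pregnant gilts, even across gilts (log2 FC 4.91 with SE 0.31, quasi-likelihood FDR 1.54e-05). CHI3L1, a chitinase-like secreted protein, reached 36.2, 9.35, 16.6 and 47.5 CPM (a 188-fold ratio of pooled CPM, 95% counting interval 51.6 to 1564, quasi-likelihood FDR 0.000315). S100A7 had no count in controls and 24.5, 9.87, 30.2 and 4.37 CPM in pregnant gilts (at least 18.9-fold higher, quasi-likelihood FDR 0.00299), but 60.1% of the 50-base windows along its exons occur also in, or overlap with, LOC110260465, so that its reads are uncertain. For other genes this share of 50-base windows is given where it is over 5%. MMP8, neutrophil collagenase, was among the 15 largest rises in CPM and had 60.2, 165, 51.9 and 237 CPM in control and 1149.9, 885, 2921 and 3248 CPM in pregnant gilts, highest in gilts 05 and 14 (log2 FC 3.99 with SE 0.62, quasi-likelihood FDR 0.00157). Of the 16 neutrophil markers 3 were listed, ITGAM and MMP8 among them, MPO, ELANE, CSF3R and CXCR2 were not, and the summed level of the 3, MMP8 included, went from 71.3 to 259 CPM in control up to 1080 to 3256 CPM in pregnant LE. A part of neutrophils in these values was not tested. SAA3 shares 8.47% of its 50-base windows with SAA2.

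A search of both strands of the 250 bases before the annotated start for TGANTCA, the letters bound by AP-1 factors, found the match in capitals in the windows of S100A12, SERPINB2 and SERPINB7 and in that of IL1RAP, described below. The windows of S100A8 and S100A9 held no match. The 4 windows shown were picked after the search because they hold a match, and the letters are from the RefSeq genome Sscrofa11.1, given 5′ to 3′ on the strand of the gene.
S100A12 (chr4:96225441-96225690, plus strand): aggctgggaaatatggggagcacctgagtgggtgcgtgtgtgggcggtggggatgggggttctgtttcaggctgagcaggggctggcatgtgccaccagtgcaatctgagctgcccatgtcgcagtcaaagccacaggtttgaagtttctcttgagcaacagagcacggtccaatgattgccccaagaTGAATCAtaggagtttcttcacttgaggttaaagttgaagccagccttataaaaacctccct
SERPINB2 (chr1:157886526-157886775, minus strand): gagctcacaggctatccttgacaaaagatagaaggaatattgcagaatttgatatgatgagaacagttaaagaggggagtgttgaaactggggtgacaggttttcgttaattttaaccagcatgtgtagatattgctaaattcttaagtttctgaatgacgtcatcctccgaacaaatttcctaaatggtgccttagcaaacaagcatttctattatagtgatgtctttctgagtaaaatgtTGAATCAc
SERPINB7 (chr1:157999243-157999492, minus strand): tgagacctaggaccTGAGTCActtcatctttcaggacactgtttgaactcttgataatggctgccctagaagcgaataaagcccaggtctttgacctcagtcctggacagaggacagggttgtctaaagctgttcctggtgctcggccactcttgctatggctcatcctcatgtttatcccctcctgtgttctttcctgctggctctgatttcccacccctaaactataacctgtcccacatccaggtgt
IL1RAP (chr13:127932989-127933238, plus strand): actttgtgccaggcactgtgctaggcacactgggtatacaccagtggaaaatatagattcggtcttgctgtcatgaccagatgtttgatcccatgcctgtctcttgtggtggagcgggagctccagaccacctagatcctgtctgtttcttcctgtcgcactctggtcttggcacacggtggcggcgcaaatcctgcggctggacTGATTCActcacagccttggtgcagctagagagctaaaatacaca
Over all genes called higher, 49 of 721 windows (6.80%) held TGANTCA, against 2.83% of windows of genes called lower and 4.02% of all 11411 windows. The letters TTCNNNGAA, read by STAT factors, stood in 5.55% of the windows of higher genes, 7.78% of those of lower genes and 5.65% of all. The NF-kappa-B motif stood in 7.35%, 4.95% and 5.63%, and the full palindromic estrogen response element in 1 of the 11411 windows, of a gene that was not called. Each motif was searched alone, a window with more than 1 match counts once, and a match of letters is not a bound site.

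Some adhesion receptors and ligands rose and others fell. Of 46 listed integrin and focal adhesion genes 7 were called higher and 2 lower (median log2 FC 0.58, 0.23 without pregnant gilt 01). The median log2 ratio to the control mean was 1.17, 0.32, 0.20 and 0.03 in gilts 01, 03, 05 and 14, and gilt 01, highest here, also held the most smooth muscle and fibroblast RNA, whose part was not tested. LAMB3 (gene ID 100736655, chromosome 9, 133298009 to 133351162), a chain of laminin 332, had 1.11, 1.60, 0.348 and 0.921 CPM in control and 251, 204, 277 and 102 CPM in pregnant gilts, from a few counts to a clear signal in each pregnant gilt (log2 FC 7.61 with SE 0.45, quasi-likelihood FDR 1.30e-05). SPP1 (osteopontin), a secreted integrin ligand, had 6.27, 4.28, 19.1 and 9.44 CPM in control and 229.99, 92.4, 107 and 146 CPM in pregnant gilts (log2 FC 3.87 with SE 0.46, quasi-likelihood FDR 0.000430). ITGAV, the alpha subunit that binds it, went from 112, 171, 205 and 115 CPM to 367, 441, 447 and 376 CPM (log2 FC 1.44 with SE 0.22, quasi-likelihood FDR 0.00154). ITGB8 (log2 FC 1.44) and ITGA3 (1.41) rose as well, and ITGB6 had 14.8, 8.28, 12.2 and 18.2 CPM in control and 39.7, 71.7, 18.4 and 32.8 CPM in pregnant gilts without being called (log2 FC 1.59 with SE 0.41, quasi-likelihood FDR 0.0195). ITGA6, a receptor for laminin at the basal side, fell from 892, 814, 866 and 981 CPM to 249, 224, 304 and 570.4 CPM, least in gilt 14 (log2 FC −1.40 with SE 0.28, quasi-likelihood FDR 0.00657). TNS3, a tensin of focal adhesions, fell as well (log2 FC −2.50). ITGA6 lost its call without any 1 gilt except pregnant gilt 14 (quasi-likelihood FDR up to 0.0244). ITGAV shares 14.7% of its 50-base windows with other genes. ITGB6 passed the threshold without pregnant gilt 05 (quasi-likelihood FDR 0.00907). For integrins and focal adhesion, lower calls numbered 1 to 4 with 1 gilt left out, fewer without each gilt except pregnant gilt 01 and 14 and more without pregnant gilt 14.

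At the apical surface 6 of 23 listed genes were called higher and none lower (higher calls 5 to 8 with 1 gilt left out). MUC1, a mucin of the glycocalyx, had 224, 259.7, 197 and 259 CPM in control and 995, 833, 1445 and 1033 CPM in pregnant gilts (log2 FC 2.20 with SE 0.21, quasi-likelihood FDR 0.000128). MUC4, another membrane mucin, had 72.3, 48.9, 34.8 and 81.5 CPM in control and 252, 447, 419 and 301 CPM in pregnant gilts (log2 FC 2.58 with SE 0.30, quasi-likelihood FDR 0.000360). LOC100624460, annotated as mucin-16, went from 15.9, 7.21, 38.6 and 18.6 CPM to 887, 2856, 874 and 455 CPM, highest in gilt 03 (log2 FC 5.99 with SE 0.71, quasi-likelihood FDR 0.000416). MUC1, MUC4 and the mucin-16 gene were thus higher in each pregnant gilt than in any control. PLS3, which bundles actin, had 59.4, 87.9, 66.1 and 63.3 CPM in control and 912, 1533, 973 and 399.8 CPM in pregnant gilts (log2 FC 3.78 with SE 0.38, quasi-likelihood FDR 0.000153). MYO1D, a motor of microvilli (log2 FC 3.06), and EZR, which ties actin to the apical membrane (1.02), rose with it. In the list of actin genes and small GTPases 10 of 86 were higher and 1 lower (higher calls 6 to 16 with 1 gilt left out, fewer without control gilt 02, 04, 06 or 13 and more without pregnant gilt 14). RND1, a small GTPase that loosens actin fibres, had 0.369, 0.267, 0 and 0 CPM in control and 17.5, 18.2, 28.7 and 7.50 CPM in pregnant gilts (a 124-fold ratio of pooled CPM, 95% counting interval 33.9 to 1035, quasi-likelihood FDR 0.000267). RAC1 (log2 FC 1.55) and the actin-severing SCIN (2.29) rose, whereas the capping protein CAPG fell (−1.48). EZR lost its call without any 1 gilt except pregnant gilt 01, 03 and 14 (quasi-likelihood FDR up to 0.0208) and CAPG without any 1 gilt except pregnant gilt 03 and 14 (up to 0.0236). For actin cytoskeleton, lower calls numbered 0 to 3 with 1 gilt left out, fewer without control gilt 02, 04, 06 or 13 or pregnant gilt 05 and more without pregnant gilt 14. LOC100624460 shares 8.30% of its 50-base windows with LOC102167930.

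Estrogen and progesterone receptors are transcription factors that the steroid hormones switch on. Among 17 listed receptors and coregulators 1 was called higher and 3 lower (median log2 FC −0.52), and among 18 classical targets 5 were called higher and none lower (0.27). Lower calls in both numbered 1 to 4 with 1 gilt left out, fewer without control gilt 02 or 06 or pregnant gilt 05. ESR1, estrogen receptor alpha, had 461, 392, 459 and 414 CPM in control and 87.6, 122, 163 and 228 CPM in pregnant gilts (log2 FC −1.51 with SE 0.26, quasi-likelihood FDR 0.00302). The fall was greatest in gilt 01 and least in gilt 14. NRIP1, a corepressor of nuclear receptors, fell from 1192, 1117, 1029 and 1163 CPM to 258, 234, 410.2 and 567 CPM (log2 FC −1.61 with SE 0.28, quasi-likelihood FDR 0.00269), and NR3C1, the glucocorticoid receptor, fell (log2 FC −1.23). PGR had 89.3, 88.7, 82.5 and 98.7 CPM in control and 61.9, 29.6, 52.6 and 67.5 CPM in pregnant gilts, which did not overlap but was not called (log2 FC −0.77 with SE 0.24, quasi-likelihood FDR 0.0413). Of the targets, GREB1 reached 38.5, 3.64, 9.98 and 16.9 CPM from 0, 0, 0.348 and 0.921 CPM (log2 FC 5.33 with SE 0.93, quasi-likelihood FDR 0.00296). SULT1E1, the estrogen sulfotransferase, had 8.86, 70.8, 30.6 and 5.06 CPM in control and 479.8, 279, 1618 and 1001 CPM in pregnant gilts, highest in gilts 05 and 14 (log2 FC 4.87 with SE 0.86, quasi-likelihood FDR 0.00328). SGK1, a kinase that regulates epithelial ion channels, had 161, 135, 156 and 214 CPM in control and 635, 1043, 815 and 866 CPM in pregnant gilts (log2 FC 2.33 with SE 0.22, quasi-likelihood FDR 0.000108). FKBP4, a cochaperone of the progesterone receptor, rose by 1.21 on the log2 scale. ESR1 lost its call without control gilt 02 or 06 or pregnant gilt 05 (quasi-likelihood FDR up to 0.0109), NR3C1 without control gilt 02 or 06 or pregnant gilt 05 (up to 0.0124), GREB1 without control gilt 02, 04 or 06 (up to 0.0133) and SULT1E1 without control gilt 02 or 06 (up to 0.0148).

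Single calcium entry genes gave some of the largest rises. Of 48 listed calcium genes 12 were called higher and 3 lower (median log2 FC 0.07, −0.08 with scaling by library size alone and −0.04 without pregnant gilt 01). Entry, pump and exchanger genes held 5 higher and 3 lower calls among 31, with 13 above 0 and a median of −0.13. Binding proteins and hormones held 7 higher and 0 lower calls among 17. TRPV6 (gene ID 100171400, chromosome 18, 7332253 to 7348383), an epithelial calcium channel, had 49.1, 28.3, 22.6 and 29.7 CPM in control and 1599, 3505, 1464 and 333 CPM in pregnant gilts (log2 FC 5.73 with SE 0.66, quasi-likelihood FDR 0.000355). Gilt 03 was highest and gilt 14 lowest, and all 4 were far above the controls. TRPV6 shares 28.3% of its 50-base windows with EPHB6, a neighbour that was not called. TRPV5 next to it had 6.64, 2.14, 1.39 and 3.91 CPM in control and 302, 824, 290.2 and 36.5 CPM in pregnant gilts, in the same order of gilts (log2 FC 6.69 with SE 0.91, quasi-likelihood FDR 0.000823). S100G, the calcium carrier calbindin-D9k, had 94.1, 67.3, 17.1 and 45.3 CPM in control and 346, 536, 626 and 179 CPM in pregnant gilts (log2 FC 2.92 with SE 0.52, quasi-likelihood FDR 0.00333). PTHLH, parathyroid hormone-like hormone, rose (log2 FC 5.14). SLC24A4 (gene ID 100156914, chromosome 7, 113836207 to 114014952), a potassium-dependent sodium and calcium exchanger, showed the reverse, with 1285, 1378, 1655 and 1094 CPM in control and 7.005, 1.56, 3.02 and 39.98 CPM in pregnant gilts (log2 FC −6.60 with SE 0.84, quasi-likelihood FDR 0.000585). It thus went from an abundant mRNA to near the floor in gilts 03 and 05. SLC8A1 (log2 FC −1.63) and CACNA1D (−1.91) were lower too. S100G lost its call without control gilt 04 or 13 or pregnant gilt 05 (quasi-likelihood FDR up to 0.0141), PTHLH without control gilt 04 (up to 0.0116) and SLC8A1 without any 1 gilt except control gilt 02 and pregnant gilt 01 (up to 0.0338). For calcium handling, higher calls numbered 6 to 12 with 1 gilt left out, fewer without control gilt 04 or 13. For calcium handling, lower calls numbered 2 to 6 with 1 gilt left out, more without pregnant gilt 14. CACNA1D shares 8.90% of its 50-base windows with CHDH.

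Other ion transport genes moved in both directions, with 9 of 67 listed genes higher and 4 lower (lower calls 3 to 9 with 1 gilt left out, more without pregnant gilt 14). SCNN1G, a subunit of the epithelial sodium channel, had 22.9, 18.7, 28.9 and 30.4 CPM in control and 264, 259, 223 and 217 CPM in pregnant gilts, with the pregnant libraries within a narrow range (log2 FC 3.25 with SE 0.20, quasi-likelihood FDR 1.44e-05). SCNN1B, its partner and neighbour on chromosome 3, rose (log2 FC 2.06). KCNN4, a calcium-activated potassium channel, reached 32.7, 18.2, 43.2 and 3.75 CPM from at most 1.48 CPM (log2 FC 6.13 with SE 1.05, quasi-likelihood FDR 0.00278). ATP1B3, a beta subunit of the sodium pump, had 196, 191, 145 and 148 CPM in control and 487, 663, 1069 and 1392 CPM in pregnant gilts (log2 FC 2.41 with SE 0.32, quasi-likelihood FDR 0.000690). SLC30A2, a zinc exporter, fell from 8.49, 10.7, 23.7 and 7.36 CPM to 0, 0, 0.605 and 0.625 CPM (log2 FC −4.76 with SE 0.69, quasi-likelihood FDR 0.00116). KCNN4 lost its call without control gilt 04, 06 or 13 or pregnant gilt 05 (quasi-likelihood FDR up to 0.0130). ATP1B3 shares 19.4% of its 50-base windows with other genes.

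Genes of growth factors and their receptors were partly higher. Of 52 listed ligands, receptors and proteins that act with them, 8 were called higher and 2 lower (median log2 FC 0.01, −0.14 with scaling by library size alone and −0.21 without pregnant gilt 01). FGF7 (gene ID 397281, chromosome 1, 122215878 to 122278705), an epithelial mitogen secreted by the porcine LE, had 679, 405, 275 and 982 CPM in control and 2560.2, 2332, 3932 and 2263 CPM in pregnant gilts, number 3 among all genes by rise in CPM (log2 FC 2.24 with SE 0.38, quasi-likelihood FDR 0.00271). Its control levels already differed widely between gilts, yet the groups did not overlap. TGFA, a ligand of the EGF receptor, had 3.32, 2.67, 0.696 and 2.53 CPM in control and 9.34, 19.2, 27.2 and 19.7 CPM in pregnant gilts (log2 FC 3.04 with SE 0.45, quasi-likelihood FDR 0.00121). ERBB3 (log2 FC 2.92), MET (1.97) and MST1R (1.99), receptors for neuregulin, hepatocyte growth factor and its relative, rose. PGF, a ligand of the VEGF receptor 1, had 5.17, 2.67, 1.39 and 2.53 CPM in control and 99.2, 209.8, 51.4 and 3.44 CPM in pregnant gilts (log2 FC 4.94 with SE 0.99, quasi-likelihood FDR 0.00601), so gilt 14 lay within the control range. EFNA5, an ephrin, fell from 246, 213, 235 and 149.8 CPM to 23.3, 11.9, 21.8 and 51.9 CPM (log2 FC −2.92 with SE 0.39, quasi-likelihood FDR 0.000736), and MDK (midkine) fell (log2 FC −1.69). EGF (−1.62) and ERBB4 (−1.996) were not called. FGF7 lost its call without control gilt 04 (quasi-likelihood FDR up to 0.0121) and PGF without any 1 gilt except pregnant gilt 14 (up to 0.0250). For growth factors and receptors, higher calls numbered 4 to 9 with 1 gilt left out, fewer without each gilt except pregnant gilt 01 and 14. For growth factors and receptors, lower calls numbered 2 to 6 with 1 gilt left out, more without pregnant gilt 01 or 14. MDK shares 20.8% of its 50-base windows with CHRM4.

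Transcription factors and phosphatases that follow MAP kinase signalling held 12 higher and 2 lower calls among 56 (higher calls 8 to 15 with 1 gilt left out). DUSP4 (gene ID 100514374, chromosome 15, 55491084 to 55508460), a nuclear MAP kinase phosphatase, had 8.12, 4.54, 3.83 and 4.60 CPM in control and 240.5, 205, 248 and 194 CPM in pregnant gilts, the lowest FDR of all genes (log2 FC 5.40 with SE 0.25, quasi-likelihood FDR 6.55e-06). DUSP6, the cytoplasmic ERK phosphatase, went the other way with 223, 157, 156 and 237 CPM in control and 24.5, 24.4, 31.4 and 76.5 CPM in pregnant gilts (log2 FC −2.26 with SE 0.37, quasi-likelihood FDR 0.00207). FOSL1, a subunit of AP-1, reached 10.5, 9.87, 8.16 and 6.56 CPM from at most 3 counts per control (log2 FC 4.42 with SE 0.55, quasi-likelihood FDR 0.000522). FOSL2 (log2 FC 2.03), MAFF (2.43) and CEBPB (2.004) rose, and NR4A3, an orphan nuclear receptor, reached 99.2, 23.4, 84.3 and 17.8 CPM (log2 FC 5.79 with SE 0.78, quasi-likelihood FDR 0.000756). The classical immediate early genes did not follow. FOS had 40.96, 23.5, 28.5 and 66.97 CPM in control and 22.2, 7.27, 13.6 and 10.9 CPM in pregnant gilts (log2 FC −1.64 with SE 0.40, quasi-likelihood FDR 0.0166), and JUN (−0.28), EGR1 (−0.19) and MYC (−0.19) overlapped between groups. CTGF, a target of YAP and TGF-beta, fell from 1775, 1060.2, 1220.4 and 1648 CPM to 222, 165, 80.4 and 462 CPM (log2 FC −2.62 with SE 0.46, quasi-likelihood FDR 0.00321). DUSP6 lost its call without pregnant gilt 05 (quasi-likelihood FDR up to 0.0101) and CTGF without control gilt 02 or 13 or pregnant gilt 03 (up to 0.0111). For immediate early genes and MAPK feedback, lower calls numbered 1 to 5 with 1 gilt left out, fewer without control gilt 02 or 13 or pregnant gilt 03 or 05 and more without pregnant gilt 14.

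Interleukin 1 acts through IL1R1 and IL1RAP on the NF-kappa-B pathway, and both receptor chains rose. IL1R1 (gene ID 100626904, chromosome 3, 52192912 to 52334734) had 290.1, 306, 425 and 201 CPM in control and 2436, 2865, 2333 and 1447 CPM in pregnant gilts, lowest in gilt 14 and still above all controls (log2 FC 2.89 with SE 0.29, quasi-likelihood FDR 0.000157). IL1RAP (gene ID 100628318, chromosome 13, 127933239 to 128071984), whose promoter is printed above, had 267, 238, 230.03 and 300.1 CPM in control and 1027, 634, 2405 and 2022 CPM in pregnant gilts, with the higher values in gilts 05 and 14 (log2 FC 2.56 with SE 0.38, quasi-likelihood FDR 0.00132). The list held 14 higher and 4 lower calls among 60 genes (lower calls 1 to 4 with 1 gilt left out, fewer without control gilt 02, 04, 06 or 13 or pregnant gilt 05), and 11 of the higher calls were among the 33 kinases, subunits and inhibitors. NFKBIA, the inhibitor that NF-kappa-B itself induces, had 11.8, 12.02, 16.7 and 23.01 CPM in control and 139, 66.5, 266 and 164 CPM in pregnant gilts (log2 FC 3.31 with SE 0.41, quasi-likelihood FDR 0.000496). The subunits NFKB2 (log2 FC 2.21), RELB (2.68) and REL (1.34) rose, while NFKB1 had 42.8, 38.7, 46.98 and 42.8 CPM in control and 49.03, 124, 89.5 and 75.3 CPM in pregnant gilts and was not called (log2 FC 0.99 with SE 0.25, quasi-likelihood FDR 0.0182). IL1A, a ligand, fell (log2 FC −1.19), as did MALT1, a protease of the pathway (−1.81), and IL18R1, a receptor of the same family (−1.34). TNFAIP3, a deubiquitinase that limits the pathway, was not called (log2 FC 1.15). REL lost its call without any 1 gilt except control gilt 02 and pregnant gilt 01 and 14 (quasi-likelihood FDR up to 0.0168), IL1A without any 1 gilt except pregnant gilt 14 (up to 0.0306) and IL18R1 without any 1 gilt except pregnant gilt 01, 03 and 14 (up to 0.0144). NFKB1 passed the threshold without pregnant gilt 01 (quasi-likelihood FDR 0.00300). REL shares 12.4% of its 50-base windows with PUS10.

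Of 37 cytokine and chemokine ligands and receptors, none of the 11 ligands was called, and 3 receptors or regulators were higher (higher calls 1 to 4 with 1 gilt left out, fewer without each gilt except control gilt 02 and pregnant gilt 14) and 5 lower (lower calls 2 to 6 with 1 gilt left out, fewer without pregnant gilt 05). IL10RB had 15.5, 16.8, 10.8 and 12.2 CPM in control and 109, 153, 114 and 87.1 CPM in pregnant gilts (log2 FC 3.06 with SE 0.23, quasi-likelihood FDR 5.13e-05). IL17RD, an inhibitor of FGF signalling related to the interleukin 17 receptors, fell from 420.3, 342, 419 and 472 CPM to 12.8, 21.8, 29.9 and 111 CPM (log2 FC −3.17 with SE 0.55, quasi-likelihood FDR 0.00294). ACKR3, a chemokine scavenger, fell as well (log2 FC −2.62). In the complement list, CLU (clusterin), which limits complement lysis and binds unfolded proteins, had 28.8, 16.8, 55.3 and 40.5 CPM in control and 686, 2511, 359 and 251 CPM in pregnant gilts, highest in gilt 03 (log2 FC 4.75 with SE 0.76, quasi-likelihood FDR 0.00196). The membrane inhibitor CD46 rose (log2 FC 1.19) and the soluble inhibitor CFI fell (−2.06). CLU shares 13.9% of its 50-base windows with other genes. IL17RD lost its call without pregnant gilt 05 (quasi-likelihood FDR up to 0.0134) and CFI without any 1 gilt except control gilt 02 and pregnant gilt 14 (up to 0.0206).

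Interferon receptors rose while most genes that interferons induce did not. Among 21 listed receptors and factors 9 were called higher and 1 lower (median log2 FC 0.60). Among 38 interferon-stimulated genes 1 was called higher, 3 lay above 0 and the median was −0.78. IFNAR1 had 149, 184, 181 and 131 CPM in control and 627, 1096, 1269 and 822 CPM in pregnant gilts (log2 FC 2.56 with SE 0.25, quasi-likelihood FDR 0.000128). IFNAR2 went from 23.99, 35.8, 22.6 and 29.5 CPM to 162, 267, 275 and 175 CPM (log2 FC 2.97 with SE 0.25, quasi-likelihood FDR 6.48e-05), and IFNGR2 (log2 FC 3.02) and IFNLR1 (2.99) rose as much. IRF9, a transcription factor of interferon signalling, fell from 87.1, 100.2, 82.5 and 70.4 CPM to 22.2, 27.003, 28.4 and 48.4 CPM (log2 FC −1.40 with SE 0.25, quasi-likelihood FDR 0.00312), and STAT2 was at a log2 FC of −0.81 without a call. MX1, an antiviral GTPase, had 126, 267, 150.3 and 108 CPM in control and 44.4, 31.7, 48.1 and 133 CPM in pregnant gilts (log2 FC −1.32 with SE 0.45, quasi-likelihood FDR 0.0582), where gilts 01, 03 and 05 were below all controls and gilt 14 was within their range. IFI6 had 542, 1068, 409.9 and 285 CPM in control and 190.3, 73.2, 139.7 and 376 CPM in pregnant gilts with the same split, and IFI30, a lysosomal reductase, was the 1 called higher (log2 FC 1.85). Higher calls in both groups numbered 10 (6 to 10 with 1 gilt left out, fewer without control gilt 04 or 06). For the whole list of 59 genes, the median log2 ratio to the control mean was −0.84, −0.65, −0.68 and 0.04 in gilts 01, 03, 05 and 14. Called lower genes of the list numbered 1 (0 to 19 with 1 gilt left out, fewer without control gilt 02, 04 or 06 or pregnant gilt 05 and more without pregnant gilt 14). IRF9 lost its call without control gilt 02, 04 or 06 or pregnant gilt 05 (quasi-likelihood FDR up to 0.0136) and IFI30 without any 1 gilt except pregnant gilt 05 and 14 (up to 0.0230). In antigen presentation 1 of 30 genes was called, SLA-3, a class I heavy chain (log2 FC 1.49). STAT2 passed the threshold without pregnant gilt 14 (quasi-likelihood FDR 0.00289), MX1 without pregnant gilt 14 (0.00214) and IFI6 without pregnant gilt 14 (0.00916). SLA-3 shares 9.34% of its 50-base windows with SLA-2, IFI30 18.7% with LOC106507303 and STAT2 6.03% with IL23A.

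Prostaglandin genes included AKR1B1, number 1 among all genes by rise in mean CPM, a difference that is not corrected for gene length. AKR1B1 (gene ID 396816, chromosome 18, 14593516 to 14752316), an aldo-keto reductase that can form prostaglandin F2 alpha and reduces glucose to sorbitol, had 252, 64.7, 299 and 217 CPM in control and 7869, 13509.5, 8097 and 1638 CPM in pregnant gilts. Even the lowest pregnant gilt, 14, was several times above the highest control (log2 FC 5.22 with SE 0.69, quasi-likelihood FDR 0.000690). Of 27 listed genes 6 were called higher and 2 lower (median log2 FC 0.11, −0.03 with scaling by library size alone and 0.21 without pregnant gilt 01). HPGD, which inactivates prostaglandins, had 608, 611, 765 and 769.5 CPM in control and 24.5, 52.97, 41.7 and 225 CPM in pregnant gilts (log2 FC −2.97 with SE 0.59, quasi-likelihood FDR 0.00586). PTGER2, a receptor for prostaglandin E2, fell from 72.3, 78.8, 109.6 and 109 CPM to 5.84, 9.87, 8.16 and 16.9 CPM (log2 FC −3.10 with SE 0.30, quasi-likelihood FDR 0.000139). ABCC1, an exporter of organic anions, had 23.2, 34.5, 34.1 and 34.3 CPM in control and 447, 496, 312 and 123 CPM in pregnant gilts (log2 FC 3.44 with SE 0.40, quasi-likelihood FDR 0.000355), and SLCO5A1, of the family of organic anion carriers, reached 175, 249.8, 258 and 14.7 CPM from at most 1.07 CPM (log2 FC 8.29 with SE 1.02, quasi-likelihood FDR 0.000473). PTGS2, cyclooxygenase 2, ranged over 14.01, 119.96, 368 and 573 CPM in pregnant gilts, from far below to within the control range of 263 to 649 CPM, and was not called (log2 FC −0.75 with SE 0.74, quasi-likelihood FDR 0.507). PTGES, the prostaglandin E synthase, had a log2 FC of −0.85 without a call. HPGD lost its call without any 1 gilt except pregnant gilt 01 and 14 (quasi-likelihood FDR up to 0.0199). For prostaglandins and eicosanoids, lower calls numbered 1 to 3 with 1 gilt left out, fewer without each gilt except pregnant gilt 01 and 14.

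Retinoid and sterol synthesis genes held lower calls and no higher call. CYP26A1, which breaks down retinoic acid, had 217, 159, 66.8 and 142 CPM in control and 0, 14.5, 0.907 and 16.9 CPM in pregnant gilts (log2 FC −4.04 with SE 0.74, quasi-likelihood FDR 0.00382), and RDH10, which makes retinal, fell from 194, 134, 351 and 157 CPM to 21.01, 34.8, 25.1 and 43.1 CPM (log2 FC −2.73 with SE 0.34, quasi-likelihood FDR 0.000554). In sterol synthesis 3 of 21 genes were called lower and none higher, with 3 genes above 0 and a median log2 FC of −0.68. Among them MSMO1 (log2 FC −1.61) and SC5D (−1.29) fell, SC5D sharing 72.3% of its 50-base windows with LOC106504896. Called lower genes of the whole sterol list numbered 3 (1 to 9 with 1 gilt left out, fewer without control gilt 02, 04, 06 or 13 or pregnant gilt 05 and more without pregnant gilt 03). NR1H3, the liver X receptor alpha, rose from 15.9, 10.4, 10.1 and 13.8 CPM to 51.4, 49.3, 33.3 and 29.4 CPM (log2 FC 1.68 with SE 0.26, quasi-likelihood FDR 0.00174). HSD11B1, which forms active glucocorticoid, rose (log2 FC 2.78). SLC27A4, a fatty acid carrier, went from 42.4, 29.1, 26.8 and 20.3 CPM to 402, 628, 243 and 145 CPM (log2 FC 3.58 with SE 0.45, quasi-likelihood FDR 0.000509). It was 1 of 4 higher and 0 lower calls among 61 fatty acid genes (median 0.14, −0.02 with scaling by library size alone). That share of higher calls was near the 6.33% of all genes. CYP26A1 lost its call without control gilt 02, 04 or 13 (quasi-likelihood FDR up to 0.0130), MSMO1 without any 1 gilt except pregnant gilt 03 (up to 0.0256), SC5D without any 1 gilt except pregnant gilt 01, 03 and 14 (up to 0.0160) and HSD11B1 without control gilt 04, 06 or 13 or pregnant gilt 03 (up to 0.0177). For fatty acid metabolism, higher calls numbered 2 to 7 with 1 gilt left out, fewer without each gilt except pregnant gilt 01 and 14 and more without pregnant gilt 14. For fatty acid metabolism, lower calls numbered 0 to 2 with 1 gilt left out, more without pregnant gilt 14.

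Genes of glucose uptake and use rose more often than they fell, with 11 of 54 listed genes called higher and 2 lower (higher calls 5 to 12 with 1 gilt left out, fewer without each gilt except pregnant gilt 01 and 14). SLC5A1, the sodium-coupled glucose carrier SGLT1, had 32.5, 82.8, 131 and 40.3 CPM in control and 941, 1662, 1170.3 and 569 CPM in pregnant gilts (log2 FC 3.92 with SE 0.50, quasi-likelihood FDR 0.000568). HK2, which traps glucose as its phosphate, had 6.64, 3.74, 1.74 and 2.76 CPM in control and 24.5, 29.6, 81.6 and 40.9 CPM in pregnant gilts (log2 FC 3.61 with SE 0.48, quasi-likelihood FDR 0.000736). TKT (log2 FC 1.94) and TALDO1 (1.51) of the pentose phosphate pathway, and LDHA (1.47), GAPDH (1.07) and ALDOA (0.95) of glycolysis rose. SLC2A1, the facilitative carrier GLUT1, had 107, 82.8, 80.4 and 95.7 CPM in control and 184, 239.9, 134 and 132 CPM in pregnant gilts and was not called (log2 FC 0.91 with SE 0.22, quasi-likelihood FDR 0.0147). PCK2 and PC, mitochondrial enzymes of oxaloacetate and phosphoenolpyruvate metabolism, were higher, PCK2 with 0.738, 0.802, 1.04 and 1.15 CPM in control and 120.2, 187, 70.4 and 12.2 CPM in pregnant gilts (log2 FC 6.60 with SE 0.84, quasi-likelihood FDR 0.000568) and PC with 17.7, 20.04, 22.3 and 16.3 CPM in control and 113, 93.5, 116 and 127 CPM in pregnant gilts (log2 FC 2.56 with SE 0.18, quasi-likelihood FDR 2.83e-05). Among amino acid genes 3 were higher and 3 lower of 60, beside 6.33% higher and 3.71% lower of all genes. SLC15A1, the peptide carrier PEPT1, had 0, 0.802, 0 and 1.15 CPM in control and 127, 239.9, 47.8 and 4.998 CPM in pregnant gilts, lowest in gilt 14 (log2 FC 7.40 with SE 1.23, quasi-likelihood FDR 0.00234). BCAT1, which removes the amino group of branched-chain amino acids, fell from 3180.3, 3805, 3324 and 3117 CPM to 761, 1015, 1186 and 1561 CPM (log2 FC −1.57 with SE 0.23, quasi-likelihood FDR 0.00127). PSAT1, of serine synthesis (log2 FC −2.89), and SLC6A9, a glycine carrier (−3.47), fell. TKT lost its call without control gilt 02, 04, 06 or 13 (quasi-likelihood FDR up to 0.0156), LDHA without any 1 gilt except control gilt 02 and pregnant gilt 01 and 14 (up to 0.0168), GAPDH without any 1 gilt except pregnant gilt 05 and 14 (up to 0.0319), ALDOA without control gilt 04 or 06 or pregnant gilt 05 (up to 0.0141) and SLC15A1 without control gilt 02, 04 or 06 (up to 0.0114). SLC2A1 passed the threshold without pregnant gilt 14 (quasi-likelihood FDR 0.00706). For glucose metabolism, lower calls numbered 0 to 1 with 1 gilt left out, fewer without any 1 gilt. For amino acids and polyamines, higher calls numbered 0 to 3 with 1 gilt left out, fewer without control gilt 02, 04 or 06. For amino acids and polyamines, lower calls numbered 3 to 5 with 1 gilt left out, more without pregnant gilt 14. GAPDH shares 8.39% of its 50-base windows with LOC110260753.

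Antioxidant genes gave 7 higher and 3 lower calls among 43 (higher calls 3 to 8 with 1 gilt left out, fewer without control gilt 02, 04 or 06). SOD2, the mitochondrial superoxide dismutase, had 9.59, 9.89, 10.4 and 14.04 CPM in control and 58.4, 205, 115 and 109 CPM in pregnant gilts (log2 FC 3.46 with SE 0.36, quasi-likelihood FDR 0.000183). TXNRD1, thioredoxin reductase (log2 FC 1.78), and GCLM (1.18) and GSS (1.56) of glutathione synthesis rose, whereas GPX4, which removes lipid peroxides, fell (−1.32). LOC100739163, annotated as glutathione S-transferase P-like, had 290.4, 243, 293 and 357 CPM in control and 1364, 1825, 1507 and 1326 CPM in pregnant gilts (log2 FC 2.35 with SE 0.19, quasi-likelihood FDR 6.14e-05). Metallothioneins bind zinc and copper, and LOC102166944, annotated as metallothionein-1E-like, fell from 35.8, 59.6, 88.4 and 46.9 CPM to 0, 1.56, 0 and 3.12 CPM (log2 FC −5.35 with SE 0.64, quasi-likelihood FDR 0.000430). HIF1A, the oxygen-regulated factor, had 385, 472, 421 and 479 CPM in control and 651, 829.8, 1615 and 1749 CPM in pregnant gilts (log2 FC 1.47 with SE 0.31, quasi-likelihood FDR 0.00786), while 1 of the other 23 hypoxia and angiogenesis targets, PLOD2, was called (log2 FC 1.69), higher calls of the list numbering 0 to 2 with 1 gilt left out, fewer without each gilt except pregnant gilt 14, and VEGFA was at −0.05. GCLM lost its call without control gilt 02, 04 or 06 (quasi-likelihood FDR up to 0.0142), GSS without any 1 gilt except pregnant gilt 14 (up to 0.0258), GPX4 without any 1 gilt except pregnant gilt 01, 03 and 14 (up to 0.0181), HIF1A without any 1 gilt except pregnant gilt 01 and 03 (up to 0.0289) and PLOD2 without any 1 gilt except pregnant gilt 14 (up to 0.0282). For redox defence, lower calls numbered 0 to 7 with 1 gilt left out, fewer without control gilt 02, 04, 06 or 13 or pregnant gilt 05 and more without pregnant gilt 14. LOC102166944 shares 6.70% of its 50-base windows with MT1A.

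Protein folding and breakdown genes shifted together. Of 80 listed proteasome and chaperone genes 77 lay above 0, 20 were called higher and none lower, at a median log2 FC of 0.62 beside 0.01 for all genes (higher calls 6 to 31 with 1 gilt left out, fewer without each gilt except pregnant gilt 03 and 14 and more without pregnant gilt 14). The proteasome held 9 of these calls among 39 genes and the heat shock proteins and chaperonin 11 among 41. PSMD12, a lid subunit, had 124, 117, 117 and 90.4 CPM in control and 335, 442, 599.8 and 580.4 CPM in pregnant gilts (log2 FC 2.13 with SE 0.22, quasi-likelihood FDR 0.000183). HSPH1 went from 165, 111, 164 and 148 CPM to 630.4, 739, 895 and 269 CPM (log2 FC 2.11 with SE 0.33, quasi-likelihood FDR 0.00171). HSP90AA1, the inducible cytosolic HSP90, had 724, 609, 781 and 705 CPM in control and 2038, 2133, 2139 and 1001 CPM in pregnant gilts, lowest of the pregnant gilts in 14 (log2 FC 1.38 with SE 0.25, quasi-likelihood FDR 0.00377). BAG2, a cochaperone, rose from 2.21, 6.15, 1.39 and 1.61 CPM to 40.9, 68.03, 67.7 and 21.6 CPM (log2 FC 4.08 with SE 0.53, quasi-likelihood FDR 0.000642). In the secretory pathway 13 of 109 genes were called higher and none lower (higher calls 3 to 14 with 1 gilt left out, fewer without control gilt 02, 04, 06 or 13 or pregnant gilt 05), among them SEC63, of the translocation channel, with 246, 181, 212 and 186 CPM in control and 688, 1128, 1056 and 536 CPM in pregnant gilts (log2 FC 2.05 with SE 0.26, quasi-likelihood FDR 0.000539). HSPA5, the main chaperone of the endoplasmic reticulum, overlapped between groups (log2 FC 0.20). Enzymes that build sugar chains gave 8 higher calls and 1 lower among 69. GALNT1, which starts mucin-type chains, had 152, 156, 165 and 142 CPM in control and 495, 1268, 1070.2 and 788 CPM in pregnant gilts (log2 FC 2.56 with SE 0.27, quasi-likelihood FDR 0.000234), and B3GNT2 (log2 FC 2.48) and GNE (2.13), the first enzyme of sialic acid synthesis, rose. HSP90AA1 lost its call without any 1 gilt except pregnant gilt 01, 03 and 14 (quasi-likelihood FDR up to 0.0179). For glycosylation, lower calls numbered 1 to 4 with 1 gilt left out, more without pregnant gilt 01.

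Ribosome genes and respiratory complexes held few called genes beside the 6.33% of all genes called higher. Of 78 cytosolic ribosomal protein genes 2 were called, RPL14 with 442, 458, 426 and 446 CPM in control and 1176, 1274, 1676 and 1229 CPM in pregnant gilts (log2 FC 1.60 with SE 0.17, quasi-likelihood FDR 0.000234) and RPS12 (log2 FC 0.84), and RPL14 shares 25.8% of its 50-base windows with LOC100739087. Of 85 ribosome biogenesis genes none was called in the quasi-likelihood test, although 17 had an unadjusted p below 0.05. No call fell among the 66 genes of respiratory complexes I to V either, where 51 lay above 0. Of 24 citric acid cycle genes 3 were called higher and none lower, PCK2 and PC among them. Translation factors and tRNA synthetases gave 6 higher and no lower calls among 79, a share near that of all genes (higher calls 2 to 9 with 1 gilt left out, fewer without control gilt 02, 04, 06 or 13 or pregnant gilt 05). EIF2B2 was the largest of them (log2 FC 2.14). RPS12 lost its call without any 1 gilt except pregnant gilt 14 (quasi-likelihood FDR up to 0.0327). For cytosolic ribosome, higher calls numbered 1 to 4 with 1 gilt left out, fewer without each gilt except pregnant gilt 14 and more without pregnant gilt 14.

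Lysosomal, vesicle and protease genes had single large rises. GLB1, lysosomal beta-galactosidase, had 85.6, 103, 81.1 and 87.7 CPM in control and 684, 709, 599 and 591 CPM in pregnant gilts, a tight rise in all pregnant gilts (log2 FC 2.85 with SE 0.16, quasi-likelihood FDR 1.30e-05). PSAP, the precursor of saposins, was number 4 by rise in CPM, with 921, 582, 646 and 731 CPM in control and 2933, 3215, 2576 and 2186 CPM in pregnant gilts (log2 FC 1.92 with SE 0.21, quasi-likelihood FDR 0.000279), and shares 18.9% of its 50-base windows with CDH23. CTSC (log2 FC 2.38), cathepsin C, rose too. Of 83 genes in this list 6 were called higher, a share near the 6.33% of all genes, and 2 lower. ANXA8, a calcium-dependent membrane binding protein, had 7.01, 6.68, 4.18 and 11.97 CPM in control and 494, 779.98, 499 and 341 CPM in pregnant gilts (log2 FC 6.11 with SE 0.38, quasi-likelihood FDR 1.44e-05). It was 1 of 8 higher calls and 1 lower among 69 vesicle genes (higher calls 1 to 8 with 1 gilt left out, fewer without each gilt except pregnant gilt 01 and 14). The protease inhibitor TIMP2 had 1286, 864, 862 and 962 CPM in control and 2335, 1993, 2373 and 1715 CPM in pregnant gilts (log2 FC 1.08 with SE 0.20, quasi-likelihood FDR 0.00420), and TIMP1 rose in proportion more (log2 FC 2.11). ADAM17, which releases growth factors and cytokines from membranes, rose from 47.2, 56.9, 44.5 and 54.1 CPM to 81.7, 100.2, 154 and 111 CPM (log2 FC 1.15 with SE 0.21, quasi-likelihood FDR 0.00382). CTSC lost its call without control gilt 04 or 06 (quasi-likelihood FDR up to 0.0130), TIMP2 without control gilt 04, 06 or 13 or pregnant gilt 05 (up to 0.0198) and ADAM17 without control gilt 02, 04, 06 or 13 (up to 0.0154). For lysosome, autophagy and cathepsins, higher calls numbered 5 to 10 with 1 gilt left out, more without pregnant gilt 01. For lysosome, autophagy and cathepsins, lower calls numbered 0 to 3 with 1 gilt left out, fewer without each gilt except pregnant gilt 14. For vesicles and exosomes, lower calls numbered 0 to 3 with 1 gilt left out, fewer without control gilt 04 and more without pregnant gilt 01 or 14. GLB1 shares 5.06% of its 50-base windows with TMPPE.

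WNT, NOTCH and Hippo genes had no higher call (higher calls 0 to 5 with 1 gilt left out, more without pregnant gilt 14) and 11 lower calls among 75 (lower calls 6 to 12 with 1 gilt left out, fewer without each gilt except pregnant gilt 01 and 14), 7 of them in the WNT part of 33. LGR5, the receptor that amplifies WNT signals, had 35.8, 13.4, 18.8 and 50.4 CPM in control and 0, 2.08, 1.51 and 0.625 CPM in pregnant gilts (log2 FC −4.60 with SE 0.61, quasi-likelihood FDR 0.000723). WNT7A, an epithelial ligand of the uterus, fell from 12.2, 13.4, 14.6 and 7.36 CPM to 0, 2.08, 1.21 and 2.19 CPM (log2 FC −2.88 with SE 0.48, quasi-likelihood FDR 0.00236), and WNT5A (log2 FC −1.40), WLS (−1.56), FZD6 (−2.15) and RNF43 (−2.78) fell. Among 34 homeobox and PAX genes 4 were lower and none higher, with 5 above 0. PAX2, a factor of Müllerian duct development, had 339, 348, 406 and 335 CPM in control and 9.34, 20.8, 31.1 and 79.03 CPM in pregnant gilts (log2 FC −3.28 with SE 0.49, quasi-likelihood FDR 0.00126). HOXA3 (log2 FC −3.38) and HOXB8 (−2.21) fell, and MSX1 had 92.3, 74.8, 69.3 and 56.4 CPM in control and 1.17, 21.8, 16.9 and 39.98 CPM in pregnant gilts without a call (log2 FC −1.76 with SE 0.50, quasi-likelihood FDR 0.0291). GATA2 fell from 94.1, 86.04, 76.6 and 71.6 CPM to 10.5, 12.5, 15.4 and 30.6 CPM (log2 FC −2.18 with SE 0.30, quasi-likelihood FDR 0.000902). FOXQ1, a forkhead factor, was the largest rise among transcription factors of the list, with 2.21, 1.07, 5.22 and 2.76 CPM in control and 152, 139, 86.8 and 44.4 CPM in pregnant gilts (log2 FC 5.22 with SE 0.51, quasi-likelihood FDR 0.000139). INHBB, an activin subunit, reached 33.9, 19.7, 9.98 and 4.37 CPM from at most 1.39 CPM (log2 FC 5.52 with SE 1.01, quasi-likelihood FDR 0.00391). WNT7A lost its call without control gilt 04 or pregnant gilt 05 (quasi-likelihood FDR up to 0.0119), RNF43 without any 1 gilt except pregnant gilt 01 and 14 (up to 0.0225) and INHBB without control gilt 02, 04 or 13 or pregnant gilt 03 (up to 0.0168). MSX1 passed the threshold without pregnant gilt 01 or 14 (quasi-likelihood FDR 0.00543). HOXA3 shares 5.004% of its 50-base windows with LOC110257526 and GATA2 27.2% with LOC102160340.

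Of 99 listed cell division genes 76 lay above 0 and 7 were called higher, a share near the 6.33% of all genes. Of 47 genes of G2 and M phase 38 lay above 0 and 4 were called higher, at a median log2 FC of 1.41, and of 52 genes of G1 and S phase 3 were called (median 0.35). MKI67, the proliferation antigen, had 33.2, 31.8, 15.7 and 25.1 CPM in control and 208, 67.5, 107 and 37.2 CPM in pregnant gilts (log2 FC 1.95 with SE 0.47, quasi-likelihood FDR 0.0150), and TOP2A had 28.4, 52.4, 31.7 and 28.5 CPM in control and 170.4, 75.8, 177 and 64.97 CPM in pregnant gilts (log2 FC 1.78 with SE 0.37, quasi-likelihood FDR 0.00708). SPC24, of the kinetochore, had 1.11, 2.67, 3.13 and 2.99 CPM in control and 54.9, 74.8, 48.98 and 10.6 CPM in pregnant gilts (log2 FC 4.19 with SE 0.58, quasi-likelihood FDR 0.000892). The median log2 ratio of the whole list to the control mean was 1.12, 0.32, 0.68 and 0.36 in gilts 01, 03, 05 and 14, and gilt 01, the library with smooth muscle RNA, was highest. Calls in the list numbered 7 (3 to 21 with 1 gilt left out, fewer without control gilt 02, 04, 06 or 13 or pregnant gilt 05 and more without pregnant gilt 14), and the median was 0.69 with and 0.47 without gilt 01. GADD45A, a stress gene that halts division, had 17.7, 11.5, 22.3 and 10.1 CPM in control and 153, 103, 144 and 87.5 CPM in pregnant gilts (log2 FC 2.99 with SE 0.30, quasi-likelihood FDR 0.000157), and the survival factor BCL2L1 (log2 FC 2.06) rose. Cilia genes gave 2 higher and 1 lower calls among 50, DNA repair genes none higher and 2 lower among 63, and clock genes 2 higher among 19. TOP2A lost its call without any 1 gilt except pregnant gilt 03 and 14 (quasi-likelihood FDR up to 0.0272). MKI67 passed the threshold without pregnant gilt 14 (quasi-likelihood FDR 0.00200). For cilia, lower calls numbered 1 to 4 with 1 gilt left out, more without pregnant gilt 14. For circadian clock, higher calls numbered 0 to 3 with 1 gilt left out, fewer without each gilt except pregnant gilt 01 and 14. For DNA repair, lower calls numbered 0 to 5 with 1 gilt left out, fewer without each gilt except pregnant gilt 01 and 14 and more without pregnant gilt 14.

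Several of the largest changes fell outside the function lists. EMB (embigin), which escorts lactate carriers to the membrane, was number 2 by rise in CPM with 15.5, 32.9, 27.8 and 17.7 CPM in control and 3164, 5384, 523 and 245 CPM in pregnant gilts (log2 FC 6.63 with SE 0.98, quasi-likelihood FDR 0.00125), far higher in gilts 01 and 03 than in gilts 05 and 14. KIAA1551 had 1191, 711, 593 and 1072 CPM in control and 1424, 2033, 3252 and 2649 CPM in pregnant gilts (log2 FC 1.39 with SE 0.31, quasi-likelihood FDR 0.00986). NOS1, a nitric oxide synthase, fell from 2905, 1477, 1437 and 2831 CPM to 195, 295, 188 and 765 CPM (log2 FC −2.58 with SE 0.48, quasi-likelihood FDR 0.00450). CRIM1, a membrane protein that binds BMPs, had 3871, 2915, 3739.9 and 3977 CPM in control and 1198, 569.7, 976 and 1885 CPM in pregnant gilts (log2 FC −1.65 with SE 0.32, quasi-likelihood FDR 0.00566). TMEM56 fell from 708, 499.9, 753 and 527 CPM to 25.7, 59.7, 64.999 and 74.7 CPM (log2 FC −3.44 with SE 0.31, quasi-likelihood FDR 9.71e-05), and NBEAL1 fell (log2 FC −1.59). Among genes that nearly vanished, NXNL2 had 1 count in all pregnant libraries together against 30.6, 26.7, 17.1 and 17.7 CPM in controls (a 210.004-fold ratio of pooled CPM, 95% counting interval 37.4 to 8321, quasi-likelihood FDR 9.06e-05, control over pregnant), and GPR83 fell from 49.1, 34.7, 39.7 and 38.9 CPM to 0, 0, 0.605 and 1.25 CPM (log2 FC −5.92 with SE 0.46, quasi-likelihood FDR 5.18e-05). The uncharacterized LOC102157603 had no count in controls and 38.5, 87.8, 42.9 and 6.56 CPM in pregnant gilts (at least 48.2-fold higher, quasi-likelihood FDR 0.00265), and the long noncoding RNA LOC102162768 had 9.23, 10.95, 10.1 and 10.6 CPM in controls and no count in pregnant gilts (at least 5.92-fold lower, quasi-likelihood FDR 0.000475). KIAA1551 lost its call without any 1 gilt except pregnant gilt 01 (quasi-likelihood FDR up to 0.0345), NOS1 without any 1 gilt except control gilt 04 and 06 and pregnant gilt 14 (up to 0.0153) and CRIM1 without any 1 gilt except pregnant gilt 03 and 14 (up to 0.0218). CRIM1 shares 11.3% of its 50-base windows with FEZ2.

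The size of the difference from the controls was not the same in the 4 pregnant libraries. Each gilt gave 1 library, and these differed in depth and in marker sums, whose part was not tested. Of the 722 genes called higher, gilt 03 had the highest level of the 4 for 312 and gilt 05 for 225, while gilt 14 had the lowest for 379. Of the 424 genes called lower, gilt 14 had the highest level for 239, and gilt 01 the lowest for 193. The median log2 ratio to the control mean was 1.57, 1.81, 1.77 and 1.33 in gilts 01, 03, 05 and 14 for the higher genes, and −1.80, −1.70, −1.63 and −1.36 for the lower genes, so gilt 14 was nearest to the controls on both sides. The order was not the same for all genes. MMP8, IL1RAP, SULT1E1 and HIF1A were high in gilts 05 and 14, whereas S100A9, EMB, CLU and SLC15A1 were highest in gilts 01 or 03 and lowest in gilt 14. These genes were picked after their values had been seen. With gilt 14 left out 1643 genes were called, 966 higher and 677 lower.

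**Figure D4:**
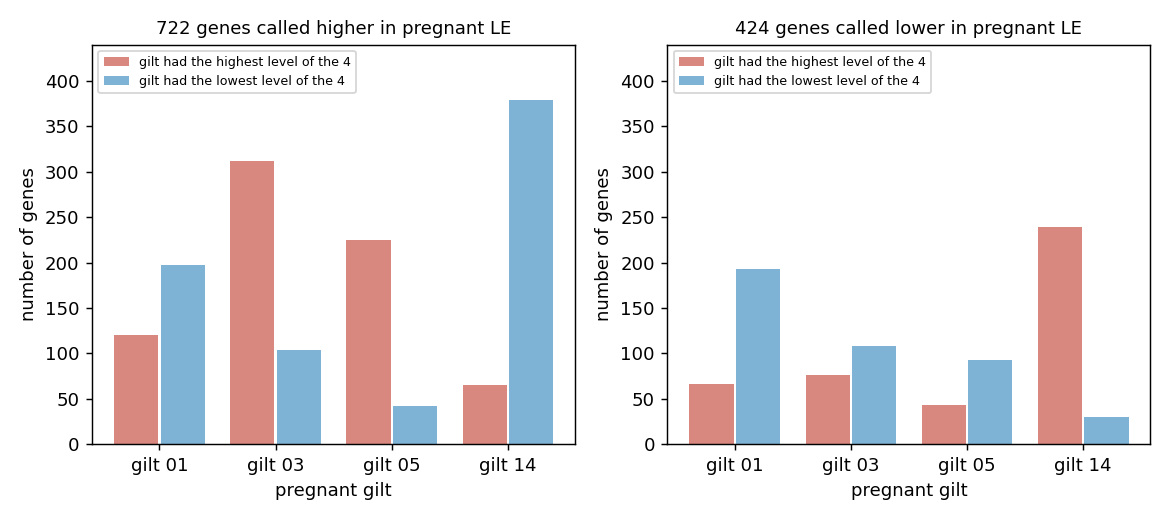
Number of genes (vertical axis) for which each of the 4 pregnant gilts had the highest (red) or the lowest (blue) level of the 4, among 722 genes called higher and 424 called lower. Gilt 14 is most often lowest among the higher genes (379) and most often highest among the lower genes (239).

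Genes called higher often lay next to each other in the genome. Of the 722 higher genes 227 (31.4%) had an adjacent listed gene that was also called higher, a neighbourhood that 12.0% of all genes had, and of the 424 lower genes 83 (19.6%) had an adjacent lower gene, against 7.19%. Runs of at least 3 adjacent genes with the same call numbered 24 for higher and 3 for lower genes. The longest run, on chromosome 13 from 196230101 to 197093308, held SYNJ1, PAXBP1, IFNAR2, IL10RB, IFNAR1, IFNGR2 and TMEM50B, that is 4 cytokine receptor chains and 3 genes of other function. SYNJ1, a phosphatase of synaptic vesicle recycling, rose as much as the receptors, with 71.6, 54.8, 49.1 and 56.4 CPM in control and 604, 386, 522 and 279 CPM in pregnant gilts (log2 FC 2.95 with SE 0.26, quasi-likelihood FDR 9.00e-05). On chromosome 4, from 96176718 to 96238989, S100A7, LOC102161828, S100A8, S100A12 and S100A9 were all higher, as were S100A14, S100A16 and S100A2 at 96027746 to 96076825, while S100A6 between these runs and S100A11 beyond them were not called. On chromosome 1, from 157820641 to 158030833, LOC100156248, SERPINB2, LOC100153783, SERPINB7 and SERPINB11 were higher, and SERPINB5 next to them was not called (log2 FC 0.40). On chromosome 18, from 6946432 to 7348383, CASP2, TMEM139, GSTK1, TRPV5 and TRPV6 were higher. A lower run on chromosome 6, from 144242639 to 144578820, held WLS, LOC110261211 and DIRAS3. TMEM50B lost its call without any 1 gilt except control gilt 02 and pregnant gilt 01 and 14 (quasi-likelihood FDR up to 0.0255), S100A2 without any 1 gilt except control gilt 06 (up to 0.0332), TMEM139 without control gilt 04 or 06 or pregnant gilt 03 (up to 0.0202) and GSTK1 without any 1 gilt except control gilt 13 (up to 0.0332). How reads in overlapping or antisense genes were assigned is not given in the sources used here, so that part of a shared direction between neighbours may come from shared reads, which was not tested. Each gene of the chromosome 13 run shared 0% of its 50-base windows with other genes. In contrast, S100A7 shared 60.1% with LOC110260465 and TRPV6 28.3% with EPHB6. Genes in runs outside the naming rule are named because of their place. S100A16 shares 24.3% of its 50-base windows with LOC100737436.

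**Figure D5:**
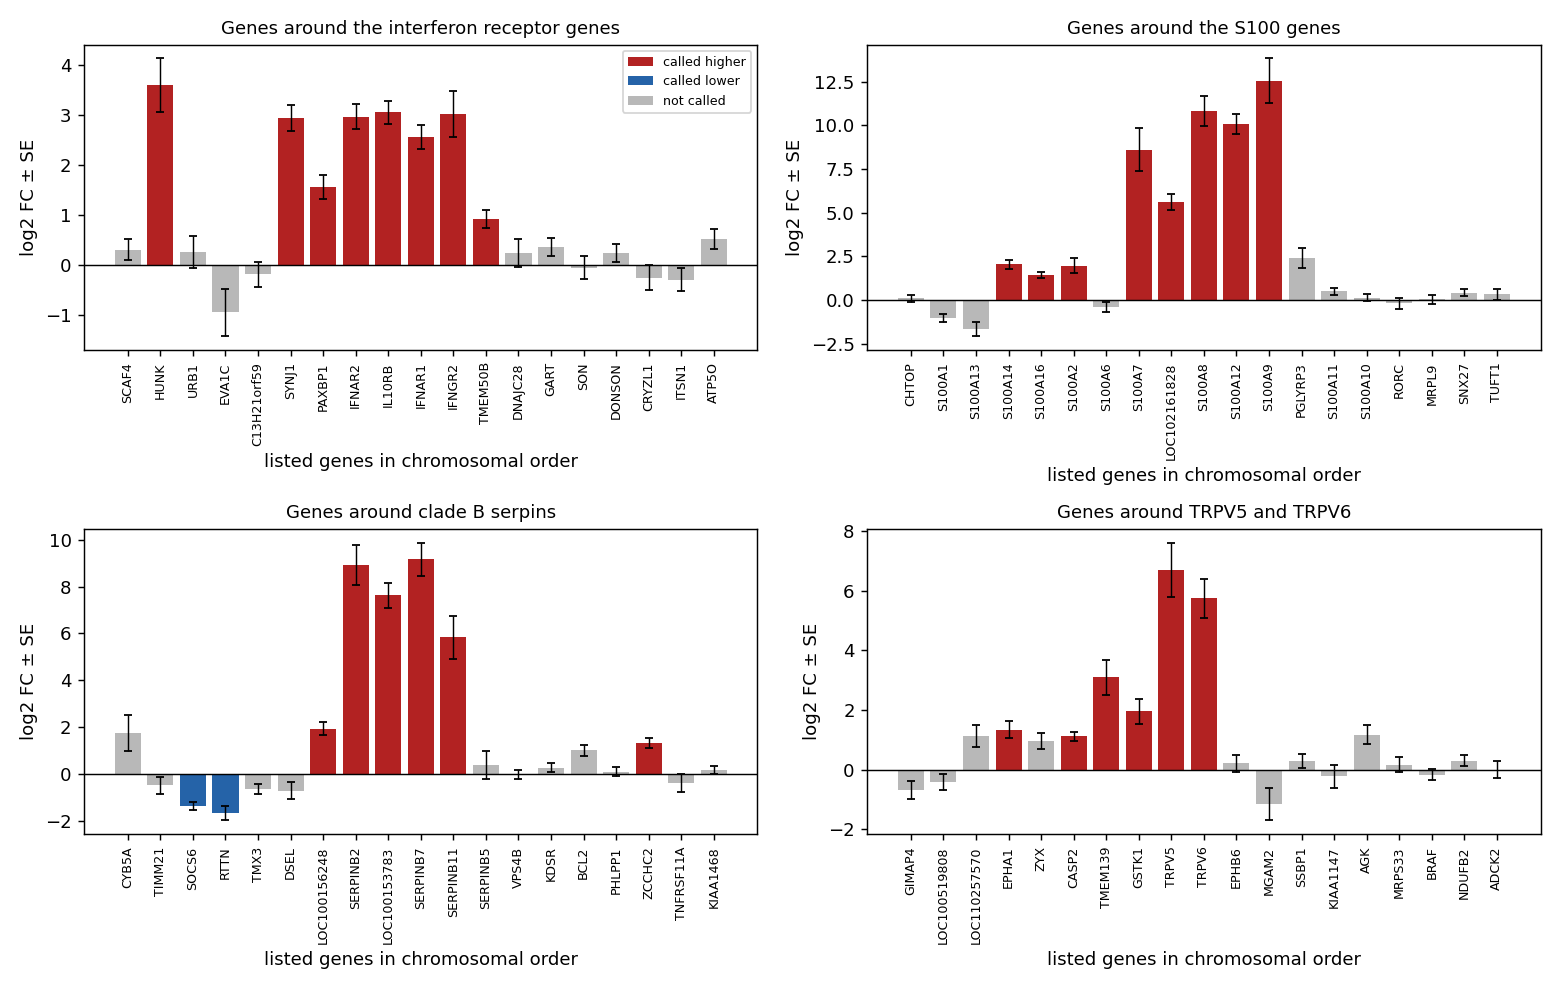
Log2 FC with SE (bars, vertical axis) of listed genes in chromosomal order around the interferon receptor genes, the S100 genes, the clade B serpins and TRPV5 and TRPV6, red called higher, blue called lower, grey not called. Runs of 7, 5, 5 and 5 adjacent higher genes each stand between 2 neighbours that were not called.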

How the data were processed

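RNA of LE cut by LCM from endometrial cryosections of 8 gilts was sequenced from low-input libraries with random bases that mark duplicates. According to the methods of the study, the authors clipped adapters, mapped single reads with Hisat2 to the porcine genome Sscrofa11.1, removed duplicate reads, and kept genes by a CPM filter. The counting tool and its use of strand are not given in the sources used here, and edgeR is named in the submitters' processing notes. The authors deposited raw read counts per NCBI gene ID, 1 table each for LE, GE and S. Gene symbols and coordinates are from the RefSeq annotation of Sscrofa11.1, in which all 11415 IDs of the LE table were found.

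Counts as deposited were scaled by TMM and tested with edgeR 4.0.16 (R 4.3.3), by the quasi-likelihood F test, with 4 pregnant against 4 control libraries, all listed genes, no covariate, and Benjamini-Hochberg FDR below 0.01. The SE is the size of the log2 FC over the square root of F. Ratios to the control mean used a pseudocount of 1 CPM. On simulated counts for 11415 genes with a log2 change of 2 in 200 genes, 159 were found, with 0 false calls and 0 wrong directions. Both groups were simulated with the same dispersion per gene. The run therefore cannot show how the wider scatter of the pregnant libraries affects false calls. Alternatives were other scalings, filters, tests (DESeq2 1.42.0 among them), thinned counts, another threshold and leaving out each gilt.

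The function lists and the rule for naming genes were chosen with earlier results of these data known. The rule took up to 4 called genes per direction and list with the largest log2 FC together with a few genes marked in the lists, the 15 with the largest rise and the 15 with the largest fall in mean CPM, and the 10 largest in each direction without overlap. Named beyond it, after their values were seen, were ACP5, ACTA2, ALDOA, CEBPB, CHI3L1, CLDN12, COL1A1, EGF, ERBB4, EVPL, EZR, FKBP4, FOSL2, FZD6, GAPDH, GCLM, GSS, IFI30, IFI6, ITGA3, KRT18, LAPTM5, LDHA, MET, MST1R, OCLN, OVOL1, PGLYRP2, PPL, PTPRC, RAC1, REL, SCNN1B, SGK1, TALDO1, TKT, VEGFA, WLS and WNT5A, besides genes named for their position or shared sequence. Fold changes against a group with no count were bounded by 3 counts per library. GE and S libraries served for marker sums. Results of some genes are not reported here.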

Additional observations from a re-analysis of the deposited data

Results flagged for a closer look

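A value far from the other 3 of its group (Dixon's ratio of gap to range above the 95% critical value for 4 samples) was found for 20 of the 272 groups examined, and chance alone flags about 1 in 20 groups. Pregnant gilt 01 held the highest ACTA2 (3391 CPM), the highest sum of smooth muscle markers (5660 CPM) and the highest SERPINB7 (424 CPM), and the lowest CDH1 (1169.8 CPM) among the pregnant libraries. Pregnant gilt 14 held the highest DUSP6 (76.5 CPM), HPGD (225 CPM), MX1 (133 CPM) and SLC24A4 (40.0 CPM) and the lowest HSP90AA1 (1001 CPM). For DUSP6, HPGD, SLC24A4 and HSP90AA1, each called between the groups, gilt 14 thus lay on the side of the controls. Among controls, gilt 06 held the highest sum of gland markers, that is of ACP5 (348 CPM), gilt 04 the highest TOP2A (52.4 CPM) and gilt 02 the lowest ABCC1 (23.2 CPM). The remaining values were from 1 library with counts beside 3 at 0, namely ACOD1 (1.38 CPM), GJB5 (0.230 CPM), SAA3 (0.230 CPM) and SERPINB7 (1.15 CPM) in control gilt 13, INHBB (1.39 CPM) and SERPINB11 (0.696 CPM) in control gilt 06, KCNN4 (1.48 CPM) in control gilt 02 and NXNL2 (0.519 CPM) in pregnant gilt 03.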

How the results depend on the processing

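With size factors of the RLE kind, the filterByExpr filter, at least 10 counts in every library or robust dispersions, the counts of called genes stayed within a factor of 1.5 of those given. Scaling by library size alone gave 50.5% higher among called genes and a median log2 FC of −0.14. Other tests called more genes, namely the exact test 1990 (1150 higher, 840 lower, 57.8% higher), the likelihood ratio test 2072 (1194 higher, 878 lower, 57.6%) and the Wald test of DESeq2 2182 (1284 higher, 898 lower, 58.8%). An FDR below 0.05 gave 2557 genes (1458 higher, 1099 lower, 57.0%). Counts thinned to the depth of the smallest library gave 647 genes (421 higher, 226 lower) and a median log2 FC of −0.00774. With 1 gilt left out, 588 to 1643 genes were called, 385 to 966 higher and 203 to 677 lower, 58.8% to 69.0% were higher, and the median log2 FC was −0.00238 to 0.0196. In every one of the alternatives at an FDR below 0.01, 419 genes were called. No paired analysis was possible because pregnant and control gilts were different animals with no shared numbers. The small number of captured cells and the total of 893912 counts in pregnant gilt 01 limit low-count genes.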
